A study of Mus musculus with 2 samples.

Results

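Genes switched on by type I interferon were followed one by one, and cell by cell, in immune cells taken from beneath the retina of mice. The members were taken from a list of 35 genes by their symbols, and 34 of the 32285 genes in the matrices matched. The remaining gene, Mx1, was not analysed here. The study made 2 single-cell RNA libraries, 1 per group, from 2 layers at the back of the eye. These are the retinal pigment epithelium (RPE), which supports the photoreceptor cells, and the choroid, which carries their blood supply. The flox library came from mice whose genotype is given as IL-17ra fl, meaning a floxed gene for the interleukin-17 receptor. The KO library came from mice given as IL-17RA CKO, a conditional knockout of the same gene. Mice of both groups had received NaIO3, an oxidant that damages the RPE, at 20 mg/kg into the abdominal cavity. Living cells carrying CD45, a surface protein of white blood cells, were then sorted. Which cell type the deletion was driven in, which exons it removed, how old the mice were and how many contributed to a library is not given in the sources used here. With 1 library per group, nothing below could be checked against replicates, and no p-value is given. Values in parentheses are 95% intervals that cover counting error only.

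Type I interferons are secreted proteins that nearly every cell can sense through the receptor pair IFNAR1 and IFNAR2. The signal passes through the kinases JAK1 and TYK2 to factors, IRF9 among them, that bind promoters carrying the interferon-stimulated response element. The genes switched on in this way encode proteins that sense viral nucleic acids, block translation, tag proteins with ISG15, trap virus particles and limit the response itself. In tissue, such genes are induced by nucleic acids from viruses and also from damaged cells.

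Each kept barcode had at least 1000 unique molecular identifiers (UMIs, the tags by which captured RNA molecules are counted) and less than 10% of them from mitochondrial genes. This left 3420 flox cells with a median of 8742 UMIs and 3982 KO cells with a median of 7714. Cells were sorted into 6 gates by a few UMIs of defining genes. The gates were Cd79a for B cells, Cd3d and Cd3e for T cells, Ncr1 without these for natural killer (NK) cells, F13a1 and Chil3 for classical monocytes, Cd300e and Adgre4 for nonclassical monocytes, and Cd209a and Clec10a for dendritic cells. In flox and KO they held 632 and 1007 B, 1378 and 1663 T, 211 and 276 NK, 416 and 312 classical monocyte, 545 and 523 nonclassical monocyte, and 203 and 150 dendritic cells. The gates are not exclusive, and 168 flox and 130 KO barcodes were in both monocyte gates. Levels are given in CPM, a gene's UMI count divided by all UMIs of the gate in that library and scaled to a common total. Markers of other lineages were also present. In the nonclassical gate 6 classical markers summed to 4251 CPM (flox) and 3428 (KO), against 2928 and 3198 for 6 of its own. In the classical gate 6 dendritic markers summed to 6395 and 6776 CPM, against 7183 and 6343. Other markers of each gate's own lineage were detected in both libraries in every gate, and 3 barcodes occurred among the kept cells of both. Il17ra itself was detected in both, its level over all kept cells being 132 CPM (flox, 128 to 136) and 123 CPM (KO, 120 to 127). The tag lies at the 3′ end of the transcript and the deleted part is not known here, so this checks nothing about the genotype. Cells of both sexes were present, in different proportions. Cells with UMIs of Xist, the X-silencing RNA of female cells, and none of 4 Y-linked genes made up 65.7% of flox and 39.3% of KO cells. Cells with Y-linked UMIs and no Xist made up 15.7% and 34.6%. The values within each of these cell sets are therefore given below beside the pooled ones.

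Over all kept cells, each of the 34 members was lower in the KO library than in the flox library. The median log2 ratio of KO over flox was -1.06, and 19 members were at least 2-fold lower, where 3.12% of all genes with at least 20 UMIs were (44.5% were lower by any amount). The median over all genes was 0.03. By cell type the medians ran from -1.14 to -0.29. In T cells all 34 were lower, 22 of them at least 2-fold (2.9% of all genes, with 46.9% lower by any amount), with a median of -1.14. In dendritic cells 33 were lower and 15 at least 2-fold (2.3% of all genes, with 43.7% lower by any amount), with a median of -0.93. In classical monocytes 34 were lower and 14 at least 2-fold (2.18% of all genes, with 43.3% lower), with a median of -0.85. In nonclassical monocytes 34 were lower but only 7 at least 2-fold (2.36% of all genes, with 45.7% lower), with a median of -0.59. In B cells 29 of 33 measured members were lower and 4 at least 2-fold (3.33% of all genes, with 52.3% lower), with a median of -0.50. In NK cells 25 of 31 were lower and 4 at least 2-fold (1.83% of all genes, with 48.0% lower), with a median of -0.29. The members' share lower by any amount was thus above that of all genes in each gate, and their share past 2-fold was above it too. The differences between gates were not tested.

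**Figure D1:**
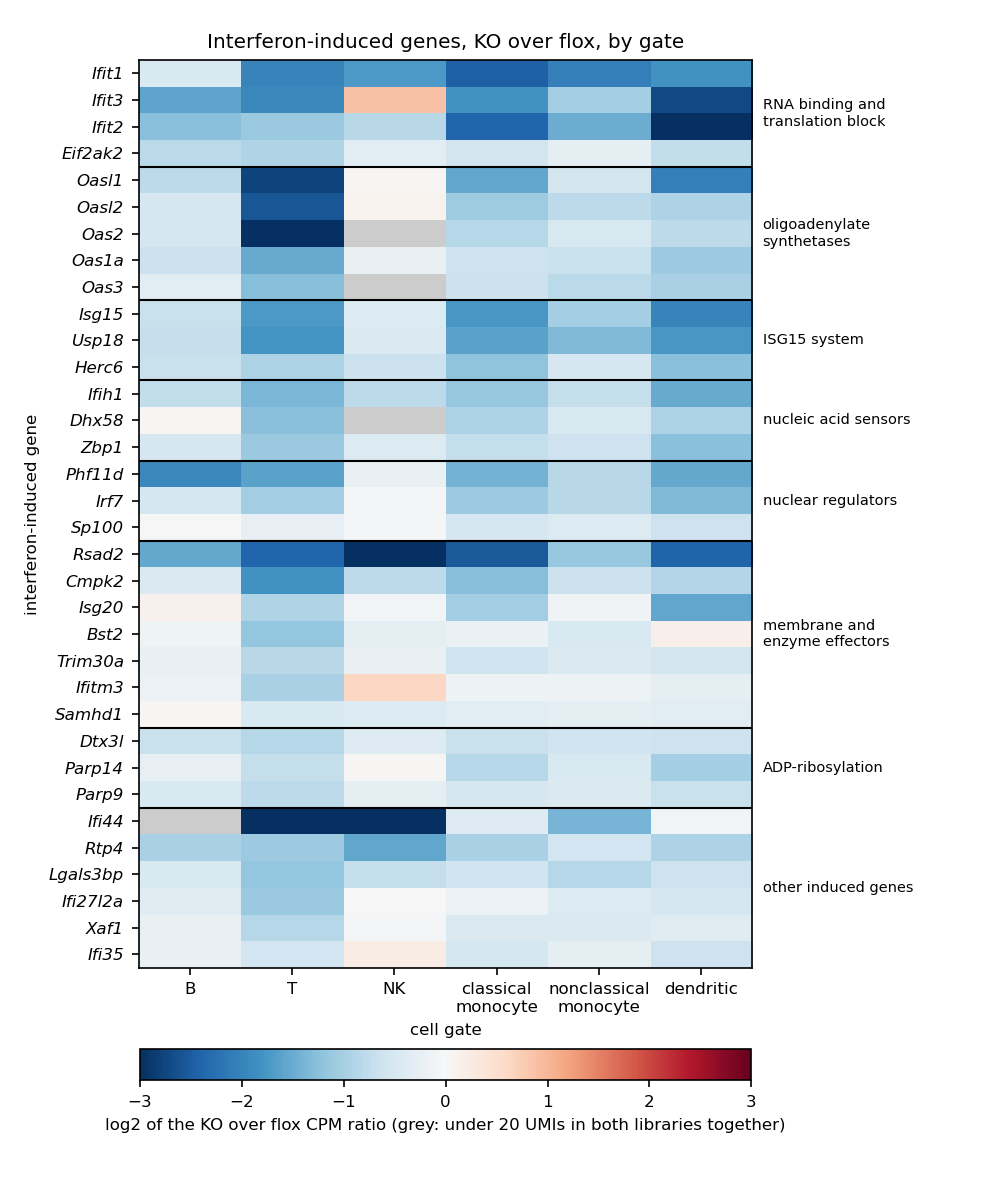
Log2 of the KO over flox CPM ratio for the 34 members (rows, grouped by role) in the 6 gates (columns). Blue is lower in KO, red higher, grey is under 20 UMIs in both libraries together, and values past 3 take the end colour. The T, classical monocyte and dendritic columns are blue throughout apart from Bst2 in dendritic cells, and the NK column is pale or red for many members.

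The IFIT proteins, which bind foreign RNA and the translation machinery, gave some of the largest ratios. Ifit1 (ENSMUSG00000034459, protein-coding, chr19:34640871-34650009, plus strand, mm10), which binds RNA with an unmethylated cap, stood at 131 CPM (T cells, flox) and 32.6 CPM (T cells, KO), a ratio of 0.249 (0.225 to 0.276). In classical monocytes Ifit1 was at 147 and 26.97 CPM, a ratio of 0.184 (0.152 to 0.220). Ifit1 was also lower in dendritic cells, at 96.0 and 27.2 CPM, and in nonclassical monocytes, at 54.0 and 13.1 CPM, while in B cells the levels of 6.64 and 4.82 CPM had a ratio interval that includes 1 (0.429 to 1.23). Ifit3 (ENSMUSG00000074896, protein-coding, chr19:34583531-34588731, plus strand), a partner of Ifit1, was at 164 and 42.8 CPM in T cells, 218 and 61.9 in classical monocytes, 180.0 and 27.6 in dendritic cells and 23.2 and 7.73 in B cells. Ifit3 was higher in KO in NK cells only, at 10.4 CPM in flox and 19.3 in KO. Ifit2, from the same gene cluster, had its lowest ratio in dendritic cells, at 118 and 14.4 CPM (0.122, 0.0857 to 0.170), and its highest of the myeloid and T gates in T cells, at 38.0 and 17.5 CPM (0.462, 0.396 to 0.539). Eif2ak2, the RNA-activated kinase that halts translation, differed less, at 70.2 and 37.5 CPM in T cells (0.534) and 147 and 99.8 in classical monocytes (0.679). In B cells Ifit2 was at 15.3 and 6.42 CPM (0.421, 0.281 to 0.623), with 39.1% of the flox UMIs in 1 cell. In NK cells Ifit1 was at 28.4 and 8.47 CPM (0.298, 0.164 to 0.518), with 84.6% of the flox UMIs in 1 cell. The 3 Ifit genes were thus at least 2-fold lower in KO in T, classical monocyte, nonclassical monocyte and dendritic cells, while the B and NK values varied between the genes and rested on few cells.

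The oligoadenylate synthetases make a messenger that activates an RNA-cutting enzyme, and their ratios in T cells differed from those in myeloid cells. In T cells all 5 measured members were at least 2-fold lower, with a median log2 ratio of -2.57. Oas2 was at 7.64 CPM in flox and 0.548 in KO (ratio 0.0717, 0.0301 to 0.147), Oasl2 at 35.6 and 5.96 (0.167, 0.132 to 0.211) and Oasl1, a relative that holds back Irf7, at 10.1 and 1.44 (0.142, 0.0850 to 0.226). In classical monocytes, where these genes had higher levels, Oas2 was at 67.4 and 37.1 CPM (0.550, 0.461 to 0.656) and Oasl2 at 186 and 89.4 (0.480, 0.429 to 0.536). Only 2 of the 5 were at least 2-fold lower there, and none in nonclassical monocytes. Oas2 UMIs came from 4.43% of flox T cells but from 46.9% of flox classical monocytes, so the gene was rare in T cells and common in monocytes of the same library.

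The ISG15 system comprises a small protein tag, the protease that removes it and a ligase that attaches it. Isg15 (ENSMUSG00000035692, protein-coding, chr4:156199424-156200818, minus strand) stood in T cells at 283 CPM (flox) and 85.9 CPM (KO), a ratio of 0.304 (0.285 to 0.324). It was at 567 and 170.4 CPM in classical monocytes (0.300, 0.278 to 0.324) and at 426 and 106 in dendritic cells (0.248, 0.218 to 0.281). In NK cells Isg15 stood at 69.9 and 52.7 CPM (0.753, 0.579 to 0.978), and 36.7% of the flox UMIs there came from 1 cell. Usp18, the protease, which also restrains the interferon receptor, was at 52.9 and 15.2 CPM in T cells and 84.8 and 25.0 in dendritic cells. Herc6, the ligase, was at 125 and 64.2 CPM in T cells (0.515) and 99.9 and 43.4 in classical monocytes (0.435).

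Sensors of nucleic acids and nuclear regulators were lower in KO to a middling degree. Ifih1, the sensor of long double-stranded RNA, was at 53.6 CPM in flox and 20.8 in KO in T cells (0.389, 0.339 to 0.446) and at 132 and 59.8 in classical monocytes (0.453, 0.396 to 0.518). Dhx58, its cofactor, was at 21.1 and 8.77 CPM in T cells, and Zbp1, a sensor that can trigger cell death, at 126 and 58.7. Irf7, the transcription factor that amplifies interferon production, was at 98.1 and 47.8 CPM in T cells (0.487, 0.443 to 0.535), 369 and 173 in classical monocytes (0.469, 0.434 to 0.508) and 274 and 109 in dendritic cells (0.397, 0.347 to 0.452). Sp100, a protein of nuclear bodies, was broadly detected (87.5% of flox and 86.2% of KO T cells) and differed little, at 435 and 365 CPM in T cells (0.841). Phf11d was lower in all 6 gates, with its lowest ratio in B cells, at 5.75 and 1.46 CPM (0.254, 0.109 to 0.544).

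Rsad2 (ENSMUSG00000020641, protein-coding, chr12:26442746-26456452, minus strand), which makes a nucleotide that ends viral RNA chains, and its neighbour Cmpk2, a nucleotide kinase, shared a direction. Rsad2 was at 57.5 and 11.1 CPM in T cells (0.193, 0.162 to 0.229), 232 and 40.8 in classical monocytes (0.175, 0.151 to 0.203) and 140 and 26.5 in dendritic cells (0.190, 0.146 to 0.243). Cmpk2 was at 24.7 and 6.99 CPM in T cells (0.283, 0.224 to 0.355). In NK cells the Rsad2 ratio of 0.0319 (0.00377 to 0.121) rests on 1 cell, which held 94.4% of the flox UMIs. Among the other effectors, Ifitm3, which blocks virus entry, was at 127 and 64.3 CPM in T cells but at 5097 and 4614 in classical monocytes (0.905, 0.890 to 0.921), where 99.8% of flox and 99.04% of KO cells held it. Samhd1, which depletes nucleotides, was at 366 and 266 CPM in T cells (0.726) and 1669 and 1334 in classical monocytes (0.799). Bst2, which tethers virus particles, was at 263 and 117 CPM in T cells (0.446) and higher in KO in dendritic cells, at 647 and 720.1 CPM (1.11, 1.05 to 1.18). Ifitm3 and Samhd1, which nearly every classical monocyte held, thus had ratios nearer 1 than Rsad2 there.

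The ADP-ribosylation enzymes Parp14 and Parp9 and the ubiquitin ligase Dtx3l, which partners with Parp9, were within 2-fold in every gate except Parp14 in dendritic cells, at 217 CPM in flox and 107 in KO (0.493). Their medians were -0.79 in T cells, -0.66 in classical monocytes and -0.45 in nonclassical monocytes. Among the remaining members, Ifi27l2a was in T cells at 1232 and 566 CPM (0.459, 0.447 to 0.472), and differed less in classical monocytes, at 2425 and 2139 CPM (0.882, 0.861 to 0.904). Ifi44 was rare and was at 9.51 and 0.548 CPM in T cells, from 3.63% and 0.421% of the cells. Rtp4 was at 79.5 and 37.6 CPM in T cells (0.472) and Lgals3bp at 82.3 and 36.8 (0.447). Xaf1 was at 74.8 and 41.5 (0.555), Ifi35 at 93.1 and 63.0 (0.677), Trim30a at 194 and 109 (0.562), Isg20 at 96.4 and 51.5 (0.534), and Oas1a and Oas3 at 44.1 and 15.5 (0.351) and 28.7 and 11.8 (0.411).

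The 34 genes lie on 14 chromosomes, and the 3 Ifit genes and the 5 oligoadenylate synthetase genes each sit on 1 chromosome, 19 and 5. To show the sequence that interferon-responsive promoters are known for, the 250 bases before each gene's start were searched on both strands for the letters GAAA, any 2 bases and GAAA again, a short form of the response element, counting overlapping matches. RefSeq promoter sequences (GRCm38.p6) matched 26 of the 34 members by symbol. The letters were found in 8 of these (30.8%), against 936 of 27025 genes (3.46%), and in 4 of 8 core members, the core being defined below. Several of the 26 also had low ratios but no match, among them Ifit2, Oasl1, Oasl2, Cmpk2, Irf7, Ifih1 and Ifi44. Oas1a, Bst2 and Trim30a had matches that are not shown. The stretches below surround 1 match in each of the 5 other members with a match. Each is written 5′ to 3′ along the gene's own strand, and the capitals mark the motif or its reverse complement.
Ifit1, chr19:34640770-34640809, plus strand: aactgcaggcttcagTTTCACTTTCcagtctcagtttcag
Ifit3, chr19:34583358-34583397, plus strand: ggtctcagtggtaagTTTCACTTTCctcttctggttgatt
Isg15, chr4:156200866-156200905, minus strand: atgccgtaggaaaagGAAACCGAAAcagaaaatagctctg
Rsad2, chr12:26456548-26456587, minus strand: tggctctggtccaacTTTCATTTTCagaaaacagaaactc
Oas3, chr5:120777710-120777749, minus strand: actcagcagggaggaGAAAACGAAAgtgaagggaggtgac
The Ifit1 and Ifit3 stretches hold the same 10 letters, TTTCACTTTC, the reverse complement of the motif. Isg15 holds 3 matches that overlap. A match is a description of these letters, and its part in the values was not tested.

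Whether all cells or few carried the signal was read from the summed UMIs of 9 core members (Ifit1, Ifit2, Ifit3, Isg15, Rsad2, Usp18, Cmpk2, Oasl1 and Irf7), after every cell had been thinned to 2000 UMIs so that depth was equal. Most cells held few or none. In flox, 58.0% of T cells, 40.5% of classical monocytes, 60.4% of nonclassical monocytes, 46.8% of dendritic cells, 76.9% of NK cells and 87.7% of B cells had no core UMI. A minority held many, and the highest flox classical monocyte had 76 core UMIs of its 2000. The variance of the count was 10.6 times its mean in flox T cells and 17.5 times in flox classical monocytes, where counts spread evenly over cells of equal depth would have a variance equal to the mean. The 10% of cells with the most core UMIs held 67.6% of all of them in flox T cells, 65.1% in classical monocytes and 62.0% in dendritic cells. In KO these shares were 74.1%, 61.7% and 64.1%, and the variance was 6.81 times the mean in T cells and 7.71 times in classical monocytes. Both measures depend on the mean count, which was lower in KO, so they do not compare the concentration between the libraries.

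The share of cells with at least 3 core UMIs was lower in KO in every gate. In T cells it was 17.1% (15.1 to 19.2) in flox and 5.66% (4.60 to 6.89) in KO. In classical monocytes it was 23.6% (19.6 to 28.0) and 7.69% (4.99 to 11.2), and in dendritic cells 24.4% (18.6 to 30.9) and 5.33% (2.33 to 10.2). These 3 pairs of intervals do not overlap. In nonclassical monocytes the shares were 8.10% (5.95 to 10.7) and 4.05% (2.52 to 6.12), in B cells 2.75% (1.61 to 4.36) and 1.41% (0.774 to 2.36), and in NK cells 1.92% (0.526 to 4.85) and 1.11% (0.229 to 3.20), and these intervals overlap. Without barcodes in more than 1 gate, the nonclassical shares were 2.59% and 3.87%, with KO the higher. Since 1 random thinning is noisy, the share expected over all thinnings was also computed, and it gave 16.9% and 4.96% for T cells, 26.2% and 10.7% for classical monocytes, 24.2% and 6.22% for dendritic cells and 10.6% and 4.60% for nonclassical monocytes. Without thinning, the shares were 37.7% and 18.6% in T cells and 71.6% and 58.3% in classical monocytes. The count of 3 marks a point in a range and not a type of cell, as 89 flox T cells had 2 core UMIs and 48 had 3. At 1 thinned depth, 12.3% of flox B cells and 42.0% of flox T cells had a core UMI. In flox barcodes of 100 UMIs or fewer, which hold mostly free RNA, members stood at 0.541 to 1.16 times their level in cells. The KO matrix, of 4096 barcodes, holds 0 of this kind, and the part of free RNA in the shares was not tested.

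**Figure D2:**
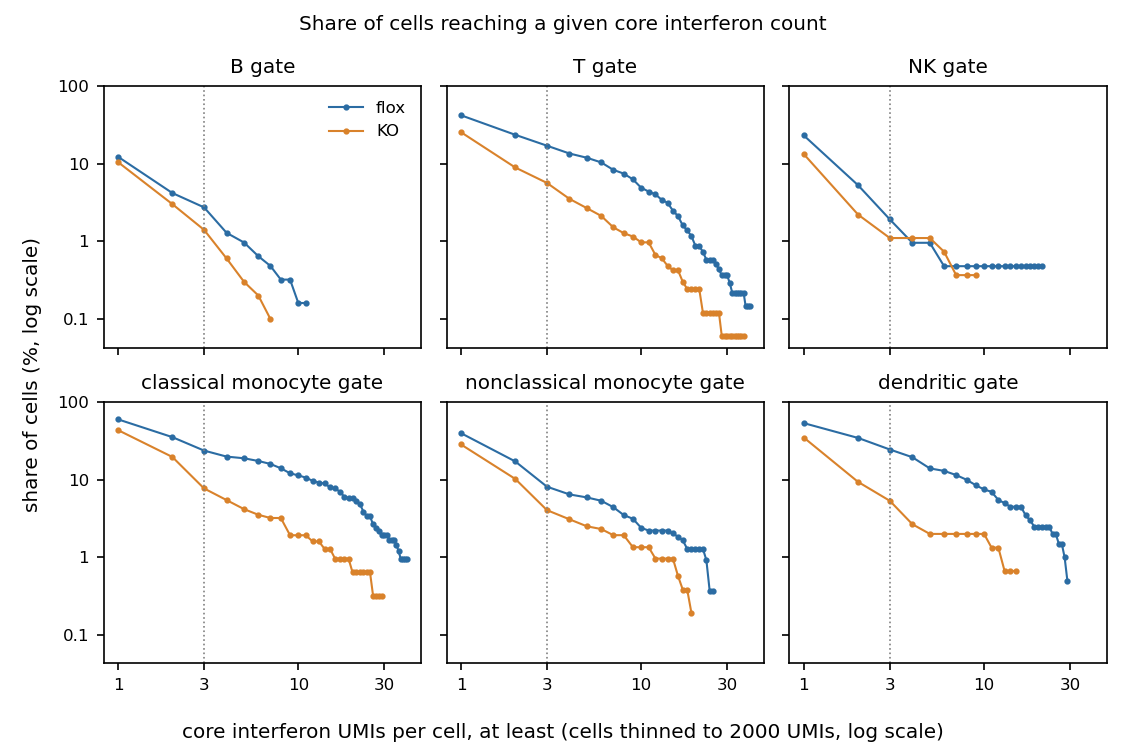
Share of cells (vertical axis, log scale) with at least a given number of core interferon UMIs (horizontal axis, log scale, drawn up to 40) after thinning to 2000 UMIs, for flox and KO in the 6 gates. The dotted line marks 3 UMIs. The flox line lies above the KO line at every count from 1 in the T and classical monocyte gates, and the lines cross in NK cells.

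The mean core count per flox cell exceeded that per KO cell by 1.20 UMIs in T cells (1.80 against 0.596), 2.53 in classical monocytes (3.64 against 1.11) and 1.85 in dendritic cells (2.54 against 0.687). Of these differences, 64.3%, 66.6% and 61.2% lay in the highest 10% of cells. These cells were ranked by the core count itself, and flox had more cells with at least 3 core UMIs in these 3 gates than fit in its highest 10%, so the other 90% of flox cells still held some and the other 90% in KO did not. Their values are therefore no measure of the level outside rich cells. With the same limit, when the highest 10% of cells of each library were left out, the median log2 ratio of the members was -1.02 in T cells, -0.80 in classical monocytes and -0.92 in dendritic cells, against -1.14, -0.85 and -0.93 for all cells. Leaving out the highest cell for each member in each library left the medians between -0.13 in NK cells and -1.13 in T cells.

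To see whether the rich cells carried the whole programme, cells were picked by 5 members (Ifit1, Ifit3, Usp18, Cmpk2 and Oasl1) and the other members were read in them. In flox T cells, 13.9% (190 cells) had at least 2 UMIs of the picking genes, against 3.59% (59 cells) in KO. These flox cells held a mean of 4.57 UMIs (4.28 to 4.89) of Isg15, Ifit2, Rsad2 and Irf7 together, where flox T cells without a picking UMI held 0.366 (0.330 to 0.404). In flox T cells 26 members were measured and not used for picking. All 26 were at least 2-fold higher in the picked cells than in cells without a picking UMI, where 2.46% of all genes were. Members were measured here on the thinned UMIs of 1 library, so fewer qualified than in the whole gate. UMIs of the picked cells count towards that, so some members qualified largely through them. Oasl2, for one, had a mean of 0.305 UMIs in picked flox T cells and 0.0153 in those without. The counts of members are thus a description and not a test. The folds ran from 2.25 for Sp100 to 34.8 for Rsad2, and Isg15 was 14.8-fold higher (12.6 to 17.4). In KO the picked T cells held 2.98 UMIs (2.56 to 3.46) of the same 4 genes and those without 0.248 (0.224 to 0.275), and 23 of 25 measured members were at least 2-fold higher (3.83% of all genes). KO thus had fewer picked T cells, a lower level within them and a lower level outside them. Depth does not separate the flox sets, with median UMIs of 8649 in picked T cells and 8736 in those without.

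**Figure D3:**
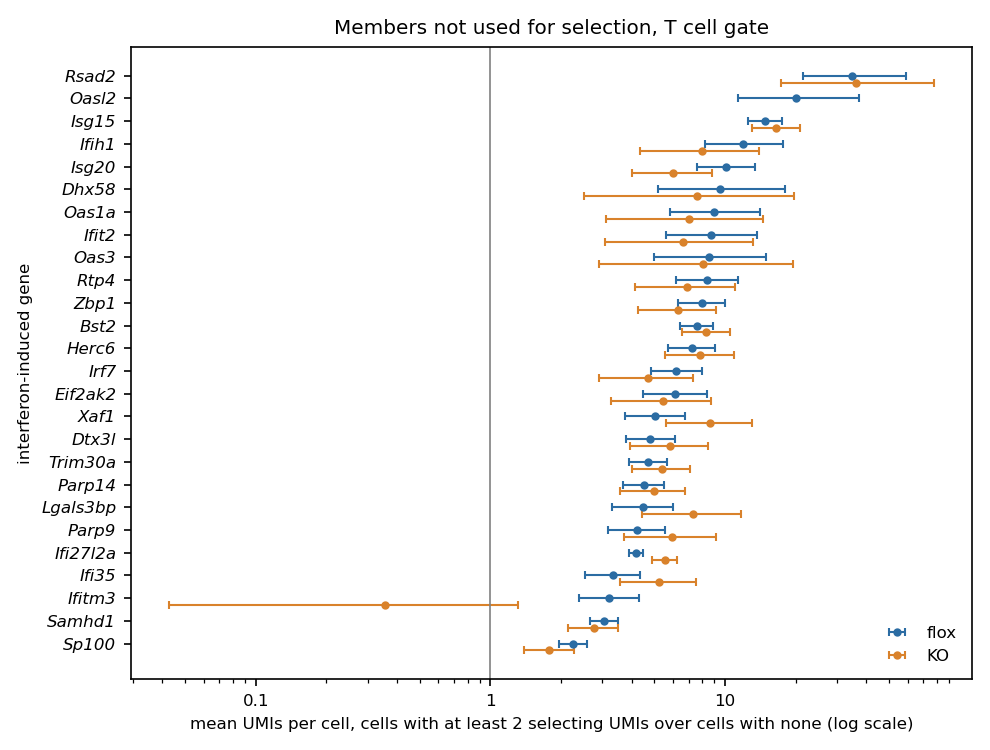
Mean UMIs per cell of members not used for picking, in T cells with at least 2 UMIs of the 5 picking genes over T cells with none (horizontal axis, log scale), with 95% counting intervals, for flox and KO. All flox points lie above 1, from 2.25 for Sp100 to 34.8 for Rsad2, and the KO points lie at similar folds except for Ifitm3, which is below 1 with an interval that includes 1.

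In the myeloid gates the picked cells were read in the same way. Of flox classical monocytes 16.1% had at least 2 picking UMIs, against 4.17% (13 cells) in KO, and these held 11.1 UMIs (10.3 to 12.0) of Isg15, Ifit2, Rsad2 and Irf7 in flox and 5.15 (3.99 to 6.55) in KO. In cells without a picking UMI the means were 0.807 (0.709 to 0.916) and 0.493 (0.412 to 0.584), with the same limit as in T cells. With 1 picking UMI they were 1.55 (1.22 to 1.95) in flox and 1.83 (1.37 to 2.39) in KO, where KO was the higher. Of 28 measured members, 24 were at least 2-fold higher in the picked flox monocytes (4.48% of all genes). The smallest fold was 1.19 for Samhd1, which nearly every monocyte held. In nonclassical monocytes 6.08% of flox and 2.70% of KO cells were picked, and they held 6.18 (5.36 to 7.09) and 5.50 (4.34 to 6.87) UMIs of those 4 genes, with intervals that overlap. There 23 of 27 members were at least 2-fold higher in the picked flox cells (4.1% of all genes), though the intervals of Herc6, Phf11d and Parp9 included 1. In dendritic cells 13.9% of flox cells but 1.33% (2 cells) of KO cells were picked. Of 25 members measured in flox dendritic cells, 21 were at least 2-fold higher in the picked cells (3.97% of all genes), and Bst2 was near equal at 1.02-fold. The limit on measured members given for T cells holds in these gates too. Ifit2 had a mean of 0.821 UMIs in picked flox dendritic cells and 0.0204 in those without a picking UMI. B cells had 1.78% and 0.706%, and NK cells 3 picked cells in each library.

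Within the T cell gate the rich cells were spread over the major subsets, which were chosen after their values had been seen. With Cd4 and no Cd8 UMI, 21.2% (16.9 to 26.0) of flox cells and 6.59% (3.95 to 10.2) of KO cells had at least 3 core UMIs. With Cd8a or Cd8b1 and no Cd4 the shares were 15.5% (12.8 to 18.6) and 6.16% (4.77 to 7.82). Cells with Ccr7, a homing receptor of naive and central memory cells, had lower shares than those without it, at 6.50% (3.90 to 10.1) against 19.7% (17.4 to 22.2) in flox and 2.49% (1.14 to 4.67) against 6.56% (5.27 to 8.06) in KO. Among T cells with Trdc, of the gamma-delta receptor, they were 9.38% (4.94 to 15.8) in flox and 1.92% (0.234 to 6.77) in KO. The pooled intervals of flox and KO do not overlap for the Cd4, Cd8 and Ccr7-negative cells, and overlap for those with Ccr7 or Trdc. In Xist-only cells the flox and KO shares were 14.6% and 1.23% with Cd4, 9.34% and 4.39% with Cd8, 12.9% and 3.29% without Ccr7, and 2.13% (4 of 188 cells) and 3.05% (4 of 131) with Ccr7, where KO was the higher. In Y-linked-only cells they were 52.6% and 10.3% with Cd4, 41.5% and 5.72% with Cd8, 49.1% and 7.43% without Ccr7, and 27.03% and 2.22% with Ccr7. The composition of the gate also differed between the libraries. The summed level of 6 NK markers in the T gate was 380.1 CPM in flox and 919 in KO, led by Gzma at 134 and 634, with none of the 6 at 0, and its part in the result was not tested.

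In flox, the signal moved with the sex-linked RNA of the cells in the T, monocyte and dendritic gates and, by the median, less in B and NK cells. In KO it did so in some gates only. In flox T cells, 44.9% (37.9 to 52.2) of Y-linked-only cells but 10.8% (8.96 to 12.98) of Xist-only cells had at least 3 core UMIs, so Y-linked-only cells were 14.5% of the T cells and 38.2% of the rich ones. The flox shares were 47.2% and 16.2% in classical monocytes, 34.0% and 5.41% in nonclassical monocytes and 55.9% and 17.4% in dendritic cells. In KO the corresponding shares were 6.36% and 3.23% in T cells, 5.65% and 7.97% in classical monocytes, 6.55% and 1.25% in nonclassical monocytes and 7.81% and 3.70% in dendritic cells. The highest shares were thus those of the Y-linked-only flox cells in all 4 of these gates. Ifit1 in T cells was at 425 CPM (flox, Y-linked-only), 67.9 CPM (flox, Xist-only), 40.2 CPM (KO, Y-linked-only) and 17.2 CPM (KO, Xist-only). Rsad2 in T cells was at 194, 28.6, 10.5 and 7.13 CPM in the same order, and Isg15 in classical monocytes at 1143, 312, 166 and 146. Over all flox cells, 34 of 34 members were higher in Y-linked-only than in Xist-only cells, 21 of them at least 2-fold (2.58% of all genes), with a median log2 ratio of 1.24. Over all KO cells the median was 0.38, with 3 members at least 2-fold higher (2.75% of all genes). By gate the flox median was 1.52 in T cells, 1.30 in dendritic cells, 0.94 in nonclassical and 0.74 in classical monocytes. It was 0.49 in flox B cells, with 6 of 30 members at least 2-fold higher (2.33% of all genes). In flox NK cells it was 0.33, with 5 of 22 (3.93% of all genes). By gate the KO median was 0.46 in T cells, 0.45 in nonclassical monocytes, 0.03 in NK cells and 0.02 in dendritic cells. It was -0.11 in classical monocytes and -0.47 in B cells, where 9 of 29 members were at least 2-fold lower in Y-linked-only cells (2.22% of all genes).

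**Figure D4:**
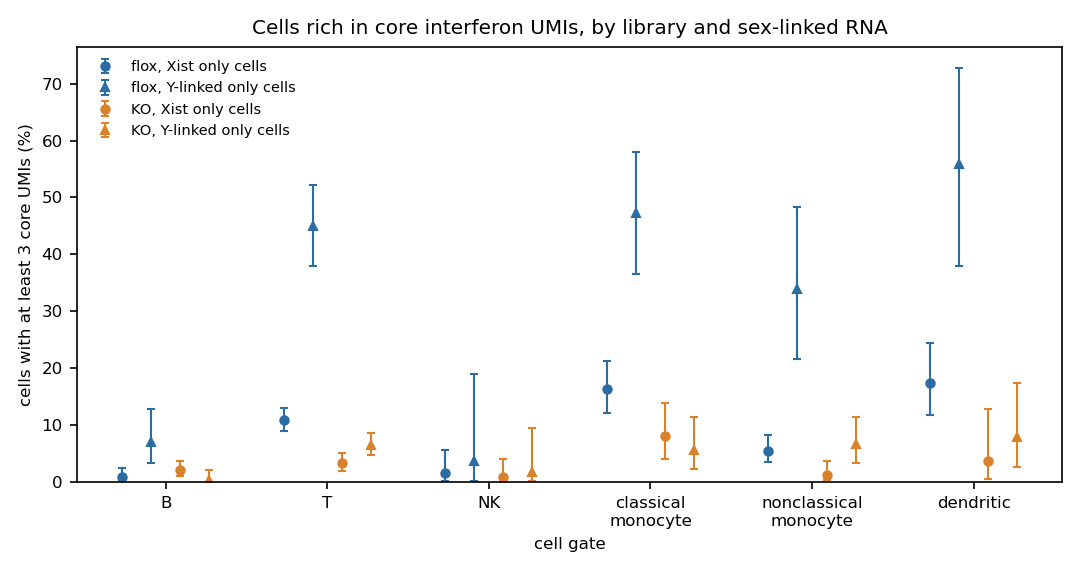
Share of cells with at least 3 core UMIs after thinning to 2000 (vertical axis, percent) by gate, library and sex-linked RNA, with 95% Clopper-Pearson intervals. Circles are Xist-only and triangles Y-linked-only cells. The flox triangles stand highest in the T, both monocyte and dendritic gates, from 34.0% to 55.9%, while the KO points of those gates lie between 1.25% and 7.97%.

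Within either set of cells, KO remained below flox in T cells and monocytes. In Xist-only T cells (976 flox and 532 KO) all 34 members were lower and 20 at least 2-fold (2.95% of all genes), with a median of -1.16. In Y-linked-only T cells (200 and 668) all 34 were lower and 33 at least 2-fold (3.34% of all genes), with a median of -2.13. In classical monocytes the medians were -0.57 (Xist-only) and -1.22 (Y-linked-only), in nonclassical monocytes -0.66 and -1.23, and in dendritic cells -0.40 (-0.86 to 0.0022) and -1.95. In Xist-only B cells the median was -0.05 (-0.56 to 0.35), with 16 of 31 members lower and 1 at least 2-fold (3.82% of all genes). In Y-linked-only B cells it was -1.10, with 23 of 23 measured members lower and 13 at least 2-fold (1.98% of all genes). In B cells the lower levels in KO were therefore seen in Y-linked-only cells (130 flox and 271 KO). In the Xist-only B cells (367 and 495) the median was near equality, with an interval on both sides of it. Sex, the animals pooled and the genotype cannot be told apart here, since the number of animals behind each set of cells is not given.

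**Figure D5:**
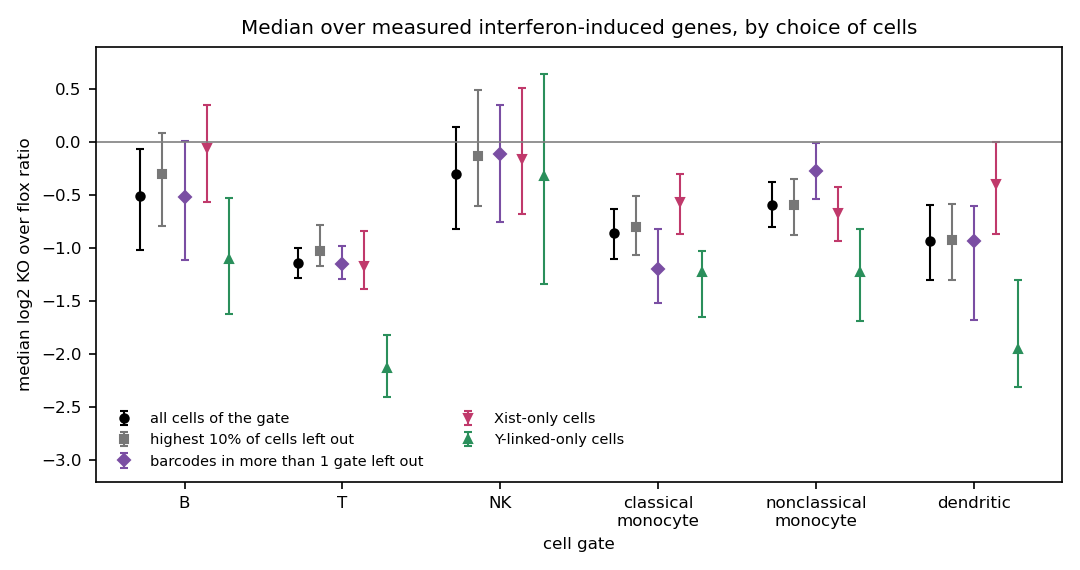
Median log2 KO over flox ratio of the measured members (vertical axis) by gate for 5 choices of cells, with bars spanning the medians of the members' 95% bounds. Y-linked-only medians lie below the others in every gate, Xist-only medians are nearest 0 in B cells (-0.05), and the nonclassical monocyte median is nearer 0 when barcodes in more than 1 gate are left out (-0.27).

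The 2 monocyte gates separated once the barcodes they share were removed. Without barcodes in more than 1 gate, the median in classical monocytes was -1.20 and that in nonclassical monocytes -0.27 (-0.53 to -0.0038). The share of nonclassical cells with at least 3 core UMIs was then 2.59% in flox and 3.87% in KO, a difference of 1.28 percentage points (-1.57 to 4.18). The lower share in KO in the nonclassical gate thus rests on barcodes that also passed another gate, most of them the classical one. Among flox classical monocytes, 1.02% of the rich cells and 7.26% of the others held a Cd300e UMI, and 96.9% and 90.9% held Ccr2, the receptor that marks classical monocytes. Markers of the RPE differed between the libraries in the classical gate, with 4 genes summing to 2.03 CPM in flox, where Rlbp1 was at 0, and 581 CPM in KO, of which Ttr made 557. Their part in the result was not tested.

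Over all kept cells, the receptor and kinase genes that carry the interferon signal were closer to equal than the members. Values here are pooled over cell types unless a gate is named, and the mix of types differed. B cells were 18.5% of flox and 25.3% of KO cells, and classical monocytes 12.2% and 7.8%. The part of this mix in the pooled values was not tested. Ifnar1 was at 77.1 CPM in flox and 81.7 in KO (1.06, 1.01 to 1.12), Ifnar2 at 145 and 139 (0.964, 0.927 to 1.002) and Jak1 at 401 and 439 (1.09). Irf9, a DNA-binding partner in the pathway, was at 74.1 and 67.4 CPM (0.909, 0.859 to 0.961). Stat2, which interferon itself induces, was lower, at 85.8 and 47.2 CPM (0.550, 0.518 to 0.584). Of 10 genes that sense nucleic acids or lead to interferon production, 8 were lower and 2 by 2-fold (44.5% and 3.12% of all genes), Tlr3 at 12.9 and 5.95 CPM (0.461) and Tlr9 at 1.60 and 0.670 (0.420). Pooled, 8 of these genes had a ratio interval below 1. By gate this held for 5 in each monocyte gate, 2 each in B, T and dendritic cells and 0 in NK cells, of the 7 to 10 measured. Of the 20 ligand genes searched, only Ifng, which encodes interferon-gamma, reached 20 UMIs, and it was higher in KO, at 47.9 and 99.5 CPM (2.08, 1.96 to 2.21). Ifnb1 had 1 UMI in flox and none in KO, so the type I ligands were not detectable at this depth. Of 7 genes that prefer interferon-gamma, 6 were lower over all cells and 1 by 2-fold (again 44.5% and 3.12% of all genes), Iigp1 at 50.8 and 16.3 CPM (0.321, 0.292 to 0.353), while Cxcl9 was higher, at 7.33 and 10.8 (1.47, 1.26 to 1.73). In nonclassical monocytes 3 of the 7 were at least 2-fold lower (2.36% of all genes) and 1 at least 2-fold higher. Their log2 ratios there ran from -6.05 to 3.62. Socs1, a brake on the receptors, was at 98.2 and 82.0 CPM (0.834).

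Near-identical neighbours of the members were counted too, because reads from such copies can be assigned to either gene or dropped. Of 13, 11 were measured and all were lower over all cells, 5 at least 2-fold (44.5% and 3.12% of all genes). Ifit3b was at 31.4 CPM in flox and 7.04 in KO (0.224, 0.195 to 0.258), next to 129 and 35.04 for Ifit3. Oas1g was at 7.67 and 2.04 (0.266), Phf11b at 129 and 66.0 (0.513), and Ifitm2 at 656 and 500.3 (0.763). The levels of Ifit3, Oas1a, Trim30a and Phf11d are uncertain to the extent that the counting split such reads, but their copies had ratios below 1 as well.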

How the data were processed

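UMI counts per gene and barcode were used as deposited in 2 matrices, which per the submitters' processing notes were made with Cell Ranger against mm10 and per the file headers with Cell Ranger 4 (flox) and 7.0.1 (KO). No source used here says whether the counting used introns or strand. The Cell Ranger version therefore cannot be told apart from the group, and its part in the ratios was not tested. The flox matrix holds 1002803 barcodes with 38623933 UMIs and the KO matrix 4096 with 35944330. The members and lists were chosen with earlier results of these data known. Named genes were all members, described by role, plus genes of the fixed pathway lists, 1 of which is not reported here.

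UMIs were summed over the cells of a gate and divided by the gate's total. A member counted as measured when its UMIs in the 2 libraries summed to at least 20, a ratio of at least 2-fold was counted as called, and 0.5 UMIs were added for log2 values. Ratios carry exact conditional binomial intervals, levels exact Poisson intervals and shares Clopper-Pearson intervals. The ratio and level intervals treat each UMI as independent. They leave out the spread between cells, which was large for the core members, and are too narrow to that extent. PCR duplicates are collapsed by the UMIs, and cells of 1 library are not replicates. For per-cell shares each cell was thinned to 2000 UMIs without replacement (seed 1), which left out 12 flox and 21 KO T cells. No doublet caller was run, and barcodes in more than 1 gate were left out as an alternative. The summing step, tested on simulated counts of the T gate over 32285 genes with 200 set 3-fold apart, recovered 100% of them, and 95.4% of intervals held the true ratio. The within-sex values were planned, and the share expected over all thinnings and the T cell subsets were chosen after seeing the data. Gene positions come from GENCODE vM21 and promoters from RefSeq. Python 3.11.15, NumPy 2.4.6, SciPy 1.17.1, pandas 2.3.3 and Matplotlib 3.10.9 were used.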

Additional observations from a re-analysis of the deposited data

Results flagged for a closer look

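In 3 cases a member was higher in KO in 1 gate, with an interval above 1, and lower in others, with intervals below 1. The differences between gates were not tested in any of these cases. Ifit3 had a KO over flox ratio of 1.858 (1.05 to 3.39) in NK cells, from 19 UMIs in flox and 41 in KO, and was below 1 in the 5 other gates. One KO cell held 43.9% of those 41 UMIs, and the share of NK cells with an Ifit3 UMI was 6.64% in flox and 2.90% in KO. Ifitm3 had a ratio of 1.533 (1.28 to 1.84) in NK cells and was below 1 in the 5 others. There, 52.9% of the flox UMIs and 37.5% of the KO UMIs came from 1 cell each, and 13.3% of flox and 6.52% of KO NK cells held a UMI. Bst2 had a ratio of 1.113 (1.05 to 1.18) in dendritic cells and was below 1 in 3 others. The summed level of 4 markers of plasmacytoid dendritic cells, which are known to express Bst2, was 599 CPM in flox and 809 in KO in that gate, with none of the 4 at 0. Its part in the result was not tested.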

How the results depend on the processing

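Of 124 recomputed member medians all were below 0 and 111 stayed close to the reported value, among them every one with other depth or mitochondrial limits, another scaling, other UMI minima or a free-RNA profile subtracted (that of flox, in both libraries, at a set 5% of UMIs, since KO has no such barcodes). The median moved in Y-linked-only cells to -1.75 (all cells), -1.10 (B), -2.13 (T), -1.22 (classical monocytes), -1.23 (nonclassical monocytes) and -1.95 (dendritic), and in Xist-only cells to -0.054 (B), -0.57 (classical monocytes) and -0.40 (dendritic). It moved to -0.89 over all cells without the highest 10% of cells, to -1.20 and -0.27 in classical and nonclassical monocytes without barcodes in more than 1 gate, and to -0.33 in dendritic cells thinned to 1000 UMIs.

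Of 60 recomputed differences in the share of rich cells, KO minus flox, 56 were below 0, 14 moved and 4 changed sign. The sign changed for Xist-only B cells (1.22 percentage points), for NK cells with a limit of 5 UMIs (0.146) or thinned to 1000 (0.139), and for nonclassical monocytes without barcodes in more than 1 gate (1.28), where the reported differences were -1.34, -0.816 and -4.06. In Y-linked-only cells the differences were -6.61 (B), -38.6 (T), -41.5 (classical), -27.4 (nonclassical) and -48.1 (dendritic), and in Xist-only cells -7.62 (T) and -8.26 (classical). Without thinning they were -3.46 (B), -19.2 (T) and -14.4 (nonclassical), and at 1000 UMIs -8.28 (T) and -8.34 (dendritic). A limit of 2 UMIs gave -14.6 in T cells, and another random thinning -7.39 in nonclassical monocytes. The causes of these shifts were not tested. In NK cells 4 flox and 3 KO cells were rich, so no difference was detectable at this depth. No paired analysis was possible because each group has 1 library.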

Other observations

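Of 7210 genes with at least 100 UMIs in 4 or more gates, 8 were at least 2-fold lower in KO in 4 gates (0.111%), and 6 of these were members, out of 33 members so measured. The other 2 were Cxcl10 and Ifi211, named here after their values were seen. Cxcl10, a chemokine that draws T cells, was at 428 CPM in flox and 33.1 in KO in classical monocytes, 186 and 15.8 in dendritic cells, 84.3 and 10.8 in nonclassical monocytes and 55.6 and 12.1 in T cells. Of flox classical monocytes with at least 3 core UMIs 57.1% held a Cxcl10 UMI, against 8.83% of those with fewer. Ifi211, of the family of DNA-sensing interferon-inducible proteins, was at 348 and 167 CPM in classical monocytes, 216 and 63.0 in dendritic cells, 14.1 and 2.33 in T cells and 16.6 and 5.69 in B cells. In NK cells it stood at 13.1 and 12.2 CPM.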
